A study of Mus musculus with 8 samples.

Results

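The group comprised 8 genes of the 22200 in the deposited table: the CCN genes Ctgf, Cyr61, Wisp1 and Wisp2, and the genes Ankrd1, Amotl2, Thbs1 and Axl that are commonly read as targets of the coactivator YAP. They were taken by symbol, and each symbol matched 1 row. Expression was profiled in immortalised mouse embryonic fibroblasts (MEFs) of the C57BL/6 background, labelled TAF4-/- in every library, so that controls and treated cells alike lack TAF4, a TFIID component of the basal transcription machinery, by their labels. The labels form untreated cells at 12 h (3 libraries), cells treated with retinoic acid, abbreviated RA, over 12 h (3 libraries) and cells treated with RA over 72 h (2 libraries). The study obtained its C3 TAF4-null MEFs by expressing the Cre recombinase in a MEF line with 1 floxed and 1 null Taf4 allele. Its discussion reports the same growth phenotype in 2 independent TAF4-null lines. The libraries are read here as 1 line and not as independent embryos. The titles of all libraries carry the mark cl1, close to the study's name C1 for the parental line that still expresses TAF4, and the genotype label was followed here. The labels number the libraries of a group as replicates without saying that they were separate cultures, so p-values measure only the spread between these libraries. No untreated library was labelled 72 h, and in the comparison of 72 h with untreated cells the effect of RA and the effect of time in culture cannot be told apart.

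YAP and its relative TAZ are coactivators that the Hippo kinases keep out of the nucleus in dense or unstretched cells, and that otherwise drive transcription through the TEAD DNA-binding factors. In fibroblasts their best known targets include secreted matricellular proteins, which sit in the extracellular matrix and act on cells through integrins and other receptors rather than as structural fibres. The CCN proteins and thrombospondin 1 belong to this class, and RA acts through nuclear receptors that bind the regulatory regions of their own targets.

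TEAD factors recognise the motif GGAATG, or CATTCC on the other strand. As this is the DNA element through which YAP reaches its targets, the 250 bases before the RefSeq start site (build GRCm38.p6) are shown for the 4 members with an entry in the promoter table used, 5′ to 3′ on the strand of the gene with the TEAD motif in capitals. Ctgf, Wisp1, Wisp2 and Thbs1 had no entry.
Cyr61 (chr3:145649986-145650235, minus strand): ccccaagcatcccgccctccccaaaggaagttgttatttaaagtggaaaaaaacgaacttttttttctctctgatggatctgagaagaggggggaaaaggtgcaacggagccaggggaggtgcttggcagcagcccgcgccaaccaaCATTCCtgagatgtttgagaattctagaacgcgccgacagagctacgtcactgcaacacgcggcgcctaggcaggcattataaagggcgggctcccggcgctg
Ankrd1 (chr19:36119845-36120094, minus strand): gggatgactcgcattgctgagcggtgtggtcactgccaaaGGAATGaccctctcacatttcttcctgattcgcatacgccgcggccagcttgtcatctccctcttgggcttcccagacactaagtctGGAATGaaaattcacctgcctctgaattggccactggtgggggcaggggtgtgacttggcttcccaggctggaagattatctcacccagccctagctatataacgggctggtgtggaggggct
Amotl2 (chr9:102717554-102717803, plus strand): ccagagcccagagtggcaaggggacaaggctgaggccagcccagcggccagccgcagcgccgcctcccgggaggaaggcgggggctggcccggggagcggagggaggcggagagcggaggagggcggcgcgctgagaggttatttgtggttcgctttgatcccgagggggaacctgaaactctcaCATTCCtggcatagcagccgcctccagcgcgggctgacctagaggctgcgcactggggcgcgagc
Axl (chr7:25788734-25788983, minus strand): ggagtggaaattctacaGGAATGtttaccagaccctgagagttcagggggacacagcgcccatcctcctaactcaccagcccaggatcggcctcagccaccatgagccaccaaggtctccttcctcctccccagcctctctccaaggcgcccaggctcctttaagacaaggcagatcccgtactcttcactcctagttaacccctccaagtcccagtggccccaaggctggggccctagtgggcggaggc
The motif was found in 4 of these 4 windows. Of all 32851 windows of the same length, 12.6% held it. Ankrd1 held 2 copies, which began 210 and 123 bases before the start site, and 1.02% of all windows held 2 or more. The single copies began 103 bases before the start of Cyr61, 65 before that of Amotl2 and 233 before that of Axl. The TATA box was read only as the exact letters TATAAA. These began 25 bases before the start of Cyr61 and were found in none of the other 3 windows, against 12.4% of all windows. Other forms of the box, such as the tatataa near the end of the Ankrd1 window, were not searched. The half-site of the RA receptors (AGGTCA) was found on the minus strand 31 bases before the start of Amotl2 alone, against 14.0% of all windows. Direct repeats of that half-site with 1, 2 or 5 bases between were found in 0 of the 4 windows and in at most 0.0335% of all windows. The AP-1 motif (TGANTCA) and the CArG box of SRF were also found in 0 of the 4, against 6.75% and 1.47% of all windows. All motifs were read on both strands, and none of the matches overlapped. A match describes the letters of a window and does not show that a factor bound there.

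**Figure D1:**
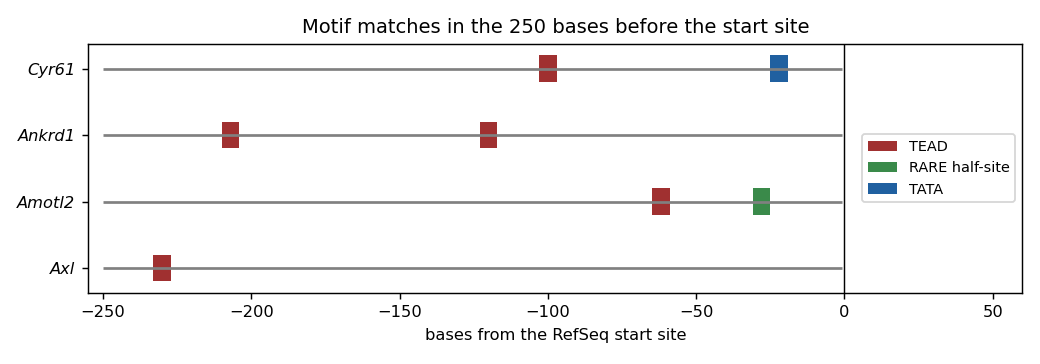
Motif matches in the 250 bases before the RefSeq start site of Cyr61, Ankrd1, Amotl2 and Axl. The horizontal axis gives bases from the start site at 0, grey lines are the windows and coloured boxes the matches; the TEAD motif lies in all 4 windows and has 2 copies in Ankrd1.

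Values are quantile-normalised reads per gene, called normalised reads below: the sorted values of the 8 columns are identical, each column sums to 9442018.6, and the lowest value is 1. The depth of the libraries is therefore unknown, and a value shows a gene's rank in its library. Treatment was seen in the targets of RA: Cyp26b1, which encodes an RA-degrading enzyme, rose by 5.99 on the log2 scale at 12 h, and Dhrs3 and Rarb rose by 3.46 and 1.76. The row for Taf4a held 984 to 1449 normalised reads, and as it covers the whole gene and not the deleted part it does not check the genotype. Of 11 fibroblast markers 10 had a mean of at least 10, and their summed level was 238533 to 259215 in untreated cells, 240176 to 250743 at 12 h of RA and 219049 to 224920 at 72 h; the exception was Thy1 at 1 to 3.5. The summed levels of 7 epithelial, 6 endothelial, 5 blood cell and 7 muscle markers did not exceed 41.5, 82.375, 76.0 and 57.25 in any library. Within the groups the libraries differed along 1 shared axis with 50.1% of the within-group variance. Side 1 of it held RA 12 h replicate 3, RA 72 h replicate 2 and untreated replicates 1 and 2, side 2 the other 4 libraries. Changes within the sides are given below for Ctgf, Cyr61, Thbs1 and Wisp2, though not in every comparison. Against untreated cells, Amotl2 differed in sign between sides 1 and 2 at 12 h (-0.094 and 0.119) and 72 h (-0.229 and 0.091). Ankrd1 did so at 72 h (0.325 and -0.183). Each side held 1 RA 72 h library, side 1 held 1 RA 12 h library and side 2 held 1 untreated library. A change within a side thus rests on 1 library in at least 1 of the groups compared and was not tested. The sides were read from the within-group spread of these same values. A lower p-value with the side as a term is therefore not independent support. The deviations of the libraries from their group means also followed the genomic span of the genes. Spearman's rho was -0.277 to -0.069 for the libraries of side 1 and 0.137 to 0.3 for those of side 2. The origin of the axis was not tested.

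By normalised reads in untreated cells, the 8 members lay between rank 10 (Thbs1) and rank 11724 (Ankrd1) of the 22200 genes. Per kilobase of annotated exons, untreated cells held 7556 normalised reads of Thbs1, 3888 of Ctgf, 3248 of Cyr61, 2932 of Axl, 612 of Amotl2, 319 of Wisp1, 275 of Wisp2 and 8.90 of Ankrd1. Among neighbours in this order, the libraries of Cyr61 (3075 to 3463) overlapped those of Ctgf (3436 to 4378) and of Axl (2677 to 3327), and the other neighbours did not overlap. At 12 h of RA Ctgf led with 6378 per kilobase and Thbs1 (4105) fell within the range of Cyr61 (3980 to 5106). At 72 h Ctgf led with 4897, followed by Axl (3214) and Cyr61 (2951), whose ranges overlapped, and Thbs1 (1156) stood between these and Wisp2 (782). These levels assume reads along the transcript, as in the study's methods. The labels describe 1 restriction-site tag per transcript instead, for which values would not scale with length.

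**Figure D2:**
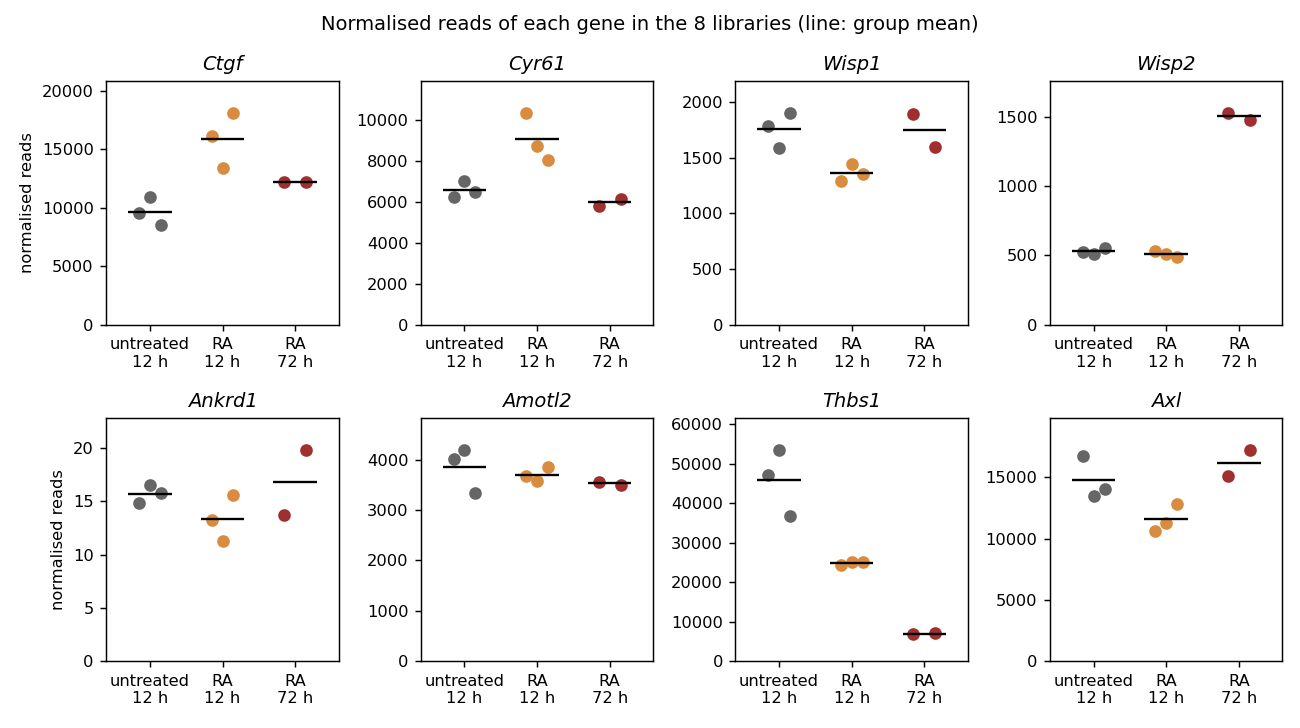
Normalised reads of the 8 genes, 1 panel each with its own linear axis from 0. Points are the libraries of untreated cells (grey, 3), RA 12 h (orange, 3) and RA 72 h (red, 2), and lines are group means; Thbs1 falls from 36832 to 53627 in untreated cells to 6948 and 7089 at 72 h, while Wisp2 stays between 487 and 551 until it reaches 1480 and 1529 at 72 h.

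The first question was which members responded to RA within 12 h, with both groups labelled 12 h. Ctgf and Cyr61 rose and Thbs1 fell, each by less than 2-fold, and the other 5 members did not pass the test. A gene was called when its limma adjusted p was below 0.05 and its change at least 2-fold. By this rule 0 of the 8 members were called, against 1.42% of the 12673 genes tested (1.11% higher and 0.308% lower). By the adjusted p alone 3 members passed, 2 higher and 1 lower, against 4.37% of all genes (2.87% higher and 1.5% lower). The median change of the members was -0.14 on the log2 scale and that of all genes -0.016. In a bulk measurement such as this one, fewer cells of a kind and less RNA per cell cannot be told apart.

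Ctgf, also named Ccn2, encodes connective tissue growth factor, a secreted protein that promotes matrix production (ENSMUSG00000019997, mm9 chr10:24315248-24318489, plus strand). Untreated replicates 1 to 3 held 9583, 10902 and 8556 normalised reads, the RA 12 h replicates 16146, 13366 and 18129, and both RA 72 h libraries 12193. Every RA library lay above every untreated one, and the 72 h libraries lay below the 12 h ones. The equal values at 72 h mean that the gene had the same rank, 82, in both libraries. Ctgf rose by 0.71 ± 0.13 (SE) on the log2 scale at 12 h, or 1.64-fold (adjusted p = 0.00532, limma). At 72 h the change was 0.34 ± 0.15 against untreated cells (adjusted p = 0.171) and -0.37 ± 0.15 against 12 h (adjusted p = 0.176), neither past the test. With the side of the shared axis as a term both passed the adjusted p, at 0.37 (adjusted p = 0.0142) and -0.40 (adjusted p = 0.0124). For each of the 2 this was the only 1 of 18 alternatives that passed, and the sides came from these same values. The rise at 12 h was 0.83 within side 1 and 0.78 within side 2. With the gene-body background subtracted its adjusted p was 0.0586. In the annotation Ctgf overlaps the gene Gm15270 on the opposite strand, and since the strandedness of the libraries is not given in the sources used here, reads of the pair cannot be separated in the overlap.

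Cyr61, or Ccn1, encodes a secreted integrin ligand that is induced within minutes by serum (ENSMUSG00000028195, mm9 chr3:145309935-145312949, minus strand). Its normalised reads were 6236, 7023 and 6504 in untreated cells, 10354, 8739 and 8071 at 12 h of RA, and 5824 and 6146 at 72 h. The 12 h libraries were the highest and the 72 h libraries the lowest, with no overlap between the 3 groups. Cyr61 rose by 0.45 ± 0.11 at 12 h (1.37-fold, adjusted p = 0.0336) and was lower at 72 h than at 12 h by -0.59 ± 0.12 (1.51-fold, adjusted p = 0.0126). At 72 h it differed from untreated cells by -0.14, with a 95% interval of -0.40 to 0.13. Both calls by adjusted p depended on single libraries, and that at 12 h also on the settings of the fit. With all libraries kept, the rise at 12 h had an adjusted p of 0.0984 without the filter on low values and 0.0790 with the replicate block. It was 0.116 without the variance trend and 0.0854 with the gene-body background subtracted (limma). The rise at 12 h gave 0.41 without untreated replicate 1 (adjusted p = 0.164), 0.35 without RA 12 h replicate 1 (0.191) and 0.47 without RA 12 h replicate 2 (0.120), and without RA 72 h replicate 1 or 2, which left the value as it was, the adjusted p was 0.0501 or 0.0504. The fall from 12 to 72 h gave -0.49 without RA 12 h replicate 1 (adjusted p = 0.0611), -0.55 without RA 72 h replicate 1 (0.122) and -0.63 without RA 72 h replicate 2 (0.0775). Within the sides the rise at 12 h was 0.29 on side 1 and 0.55 on side 2.

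Thbs1 encodes thrombospondin 1, a large secreted glycoprotein that binds CD47 and CD36 and can release active TGF-beta from its latent form (ENSMUSG00000040152, mm9 chr2:117937612-117952869, plus strand). Untreated replicates held 47208, 53627 and 36832 normalised reads, RA 12 h replicates 24403, 25192 and 25192, and RA 72 h replicates 6948 and 7089. The 3 groups stood in steps without overlap, and the gene moved from ranks 10 to 17 in untreated cells to ranks 28 and 29 at 12 h and 158 and 163 at 72 h. At 12 h Thbs1 fell by 0.86 on the log2 scale (SE 0.13, 1.82-fold, adjusted p = 0.00149). Without untreated replicate 3, the lowest of its group, the fall was 1.01 and past 2-fold (log2 change -1.01, adjusted p = 3.57e-05). The change was -0.998 within side 1 and -0.571 within side 2.

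**Figure D3:**
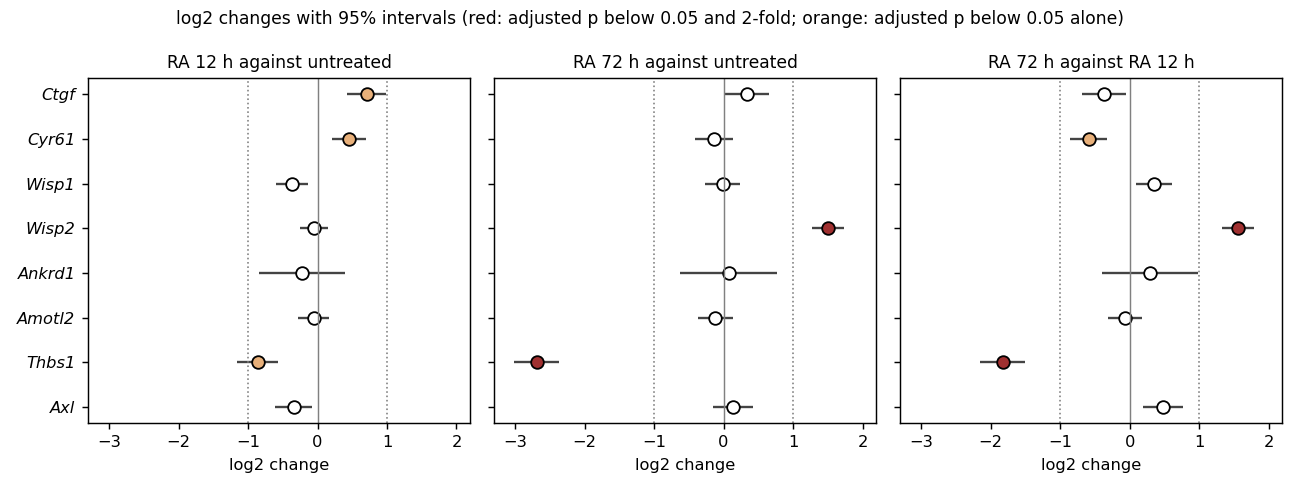
Change of each member on the log2(value + 1) scale in the 3 comparisons. Points are limma estimates and bars their 95% intervals, filled red where the adjusted p was below 0.05 with at least 2-fold and orange where the adjusted p alone passed; dotted lines mark 2-fold, and Thbs1 (-2.69 and -1.83) and Wisp2 (1.51 and 1.56) lie beyond them in both comparisons with 72 h.

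The comparison of RA at 72 h with untreated cells then asked how the members stood after the longer treatment. Thbs1 was 6.46-fold lower and Wisp2 2.84-fold higher, and the other 6 members did not pass the test. These 2 called genes of 8 stood against 3.67% called among all genes tested, 2.15% higher and 1.52% lower. By the adjusted p alone the same 2 members passed, against 11.5% of all genes (6.08% higher and 5.41% lower). The median change of the 8 members was 0.03, and -0.02 for all genes.

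The fall of Thbs1 at 72 h was -2.69 ± 0.15 (adjusted p = 1.22e-07) against untreated cells and -1.83 ± 0.15 against RA at 12 h (3.55-fold, adjusted p = 2.25e-05). Leaving out any 1 library, or using any other alternative setting run, gave -2.84 to -2.57 against untreated cells, with an adjusted p of at most 0.000633. Within the sides the fall was -2.83 and -2.41 against untreated cells and -1.83 and -1.84 against 12 h. The 3 genes outside the group whose pattern over the 8 libraries was most like it were Il1rl1 (Pearson's r = 0.993), Ndrg4 (0.992) and Mkx (0.992). The mean of Il1rl1, the receptor of interleukin 33, was 4213 normalised reads in untreated cells, 2655 at 12 h and 764 at 72 h. These r are given as a description, since they were picked as the highest of all genes and the libraries share their groups.

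Wisp2, or Ccn5, encodes the CCN protein that lacks the C-terminal domain shared by the other family members (ENSMUSG00000027656, mm9 chr2:163646597-163658882, plus strand). Its normalised reads were 525, 510.1 and 551 in untreated cells, 533, 509 and 487 at 12 h of RA, and 1529 and 1480 at 72 h. Untreated and 12 h libraries overlapped, and both 72 h libraries lay above all others. At 12 h the change was -0.05 with a 95% interval of -0.26 to 0.15. At 72 h Wisp2 rose by 1.51 ± 0.11 against untreated cells (adjusted p = 1.09e-06) and by 1.56 ± 0.11 against RA at 12 h (2.95-fold, adjusted p = 5.51e-06). Under all alternatives run the rise against untreated cells stayed between 1.48 and 1.54, and it was 1.51 and 1.47 within the sides. The genes most like it over the 8 libraries were Mcam (r = 0.992), Rasl11a (0.992) and Hist1h1c (0.990). Mcam, which encodes a cell adhesion molecule, had means of 366, 362 and 853 normalised reads in the 3 groups, and Hist1h1c, a linker histone gene, had 2088, 1972 and 5116.

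Setting the 72 h RA libraries against the 12 h RA libraries asked which members changed between the 2 times under treatment. Again 2 of 8 members were called, Wisp2 higher and Thbs1 lower, against 1.5% of all genes (0.765% higher and 0.734% lower). By the adjusted p alone Cyr61 joined them as lower, which made 3 of 8 against 5.84% (2.92% higher and 2.92% lower). Counting members whose libraries did not overlap gave 5 of 8 at 12 h against untreated, where 20% of all genes did so, 4 of 8 at 72 h against untreated (36.6%) and 7 of 8 at 72 h against 12 h (37.3%). The 7 were all members but Ankrd1. The comparisons share libraries, so that a member with high values at 12 h enters both the first and the last.

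Wisp1, or Ccn4, is the CCN gene first described as induced by Wnt-1 (ENSMUSG00000005124, mm9 chr15:66722882-66754763, plus strand). It held 1785, 1586 and 1902 normalised reads in untreated cells, 1285, 1446 and 1357 at 12 h of RA, and 1891 and 1595 at 72 h. The 12 h libraries were the lowest 3 of the 8, and the 72 h libraries lay within the range of the untreated ones. Its change was -0.36 ± 0.11 at 12 h (adjusted p = 0.0805), -0.01 at 72 h against untreated cells (95% interval -0.27 to 0.24) and 0.35 ± 0.12 at 72 h against 12 h (adjusted p = 0.111). With the side of the shared axis as a term, the 12 h change was -0.41 (adjusted p = 0.00381) and that from 12 to 72 h 0.37 (adjusted p = 0.0103). For each change this was the only 1 of 18 alternatives that passed the adjusted p. The only other CCN gene of the table, Nov (Ccn3), held 660.1, 647 and 771 normalised reads in untreated cells, 350.1, 389 and 399 at 12 h, and 587 and 555 at 72 h. Nov fell at 12 h, with a change of -0.86 ± 0.11 (adjusted p = 0.000248), and rose from 12 to 72 h by 0.59 ± 0.12 (adjusted p = 0.0113), without being called. Wisp3 was not analysed here.

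Axl encodes a receptor tyrosine kinase of the TAM family, which binds the ligand Gas6 (ENSMUSG00000002602, mm9 chr7:26542292-26573724, minus strand). Untreated cells held 16747, 13471 and 14047 normalised reads, cells at 12 h of RA 10646, 11306 and 12851, and cells at 72 h 15085 and 17270. The 12 h libraries were again the lowest, without overlap. The change was -0.34 ± 0.12 at 12 h (adjusted p = 0.156), 0.14 at 72 h (95% interval -0.16 to 0.43) and 0.48 ± 0.14 at 72 h against 12 h (adjusted p = 0.0565). The last of these passed in 5 of the 18 alternatives run, and its highest adjusted p among them was 0.375 (limma). It passed without untreated replicate 2 (adjusted p = 0.0432) or untreated replicate 3 (0.0322), which left the value as it was. Without RA 12 h replicate 3 it passed with a value of 0.56 (0.0488). It also passed with the side of the shared axis as a term, at 0.45 (adjusted p = 0.00405), and in a fit of the 2 groups alone (0.0244). Of the other TAM genes, Tyro3, Mertk and the ligand Pros1 were tested and 0 of 3 passed in any comparison. Their ligand Gas6 stayed at 3.88 to 13.4 normalised reads, below the level tested.

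Amotl2 encodes an angiomotin-like protein that binds YAP and holds it in the cytoplasm (ENSMUSG00000032531, mm9 chr9:102619002-102635748, plus strand). It was the member with the narrowest range, at 4005, 4200 and 3337 normalised reads in untreated cells, 3680.1, 3570.1 and 3844 at 12 h, and 3553 and 3499.5 at 72 h. Its highest library held 1.26 times its lowest, and the RA libraries lay within the range of the untreated ones. The 95% interval of its change was -0.27 to 0.17 at 12 h, -0.37 to 0.13 at 72 h and -0.32 to 0.18 between them.

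Ankrd1 encodes an ankyrin repeat protein of the nucleus and the muscle sarcomere (ENSMUSG00000024803, mm9 chr19:36186455-36194334, minus strand). It was the lowest member by far, with 14.9, 16.5 and 15.8 normalised reads in untreated cells, 13.2, 11.2 and 15.6 at 12 h of RA, and 13.8 and 19.9 at 72 h. The 3 groups overlapped. Its intervals were the widest of the 8, at -0.85 to 0.39 for 12 h and -0.62 to 0.76 for 72 h against untreated cells. A change within these bounds is not excluded by the data. An estimate of reads spread over gene bodies accounted for 4.30 to 10.5% of its values, and for at most 0.371% of the values of any other member. Of the 7 muscle markers, 6 had a mean below 10.

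The genes listed beside the members were read from the same fit, and the counts of calls in each list stand against the 1.42% of all genes called at 12 h, 3.67% at 72 h and 1.5% between the 2 times. Of 15 tested further YAP and TEAD targets, 0 were called at 12 h, 1 at 72 h against untreated cells and 1 at 72 h against 12 h. Tgfb2, a TGF-beta ligand, held 84.9 to 107 normalised reads in untreated cells and 191 and 216 at 72 h, a rise of 1.10 ± 0.17 (adjusted p = 0.000813). Nt5e, the ecto-enzyme CD73, held 118 to 171 in untreated cells, 263 to 318 at 12 h and 88.9 and 96.6 at 72 h. Its libraries at 12 h lay above and those at 72 h below all untreated ones, and the fall from 12 to 72 h was -1.60 ± 0.17 (adjusted p = 0.000151). By the adjusted p alone 4 targets were higher and 3 lower at 12 h, and 5 higher and 4 lower at 72 h, with medians of 0.22 and 0.10. Over all genes tested these shares were 2.87% higher and 1.5% lower at 12 h, and 6.08% higher and 5.41% lower at 72 h. The count at 12 h was 1 without untreated replicate 1 (Nuak2, 1.02), untreated replicate 3 (Nt5e, 1.10) or RA 12 h replicate 2 (Nt5e, 1.03), and 2 without RA 12 h replicate 3 (Nt5e, 1.01, and Gadd45a, 1.01). At 72 h it was 2 without RA 72 h replicate 2, where F3, the tissue factor gene, joined at -1.10.

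Of 11 tested genes for YAP, TAZ, TEAD factors and their partners, 1 was called, at 72 h. By the adjusted p alone 1 was higher at 12 h, 2 at 72 h and 1 at 72 h against 12 h, and 0 were lower. Of all genes 2.87%, 6.08% and 2.92% were higher, and 1.5%, 5.41% and 2.92% lower. Tead3, named here after its values were seen, rose at 72 h by 0.45 ± 0.11 against untreated cells (adjusted p = 0.0159, limma). Against 12 h it rose by 0.41 ± 0.11 (adjusted p = 0.0464), which did not pass without RA 12 h replicate 1 (0.144). Amotl1, a relative of Amotl2 that also binds YAP, held 1067 to 1227 normalised reads in untreated cells, 2217 to 2270.2 at 12 h and 2417 and 2259.5 at 72 h. All 5 RA libraries lay above the untreated ones, with a rise of 0.98 ± 0.09 at 12 h (adjusted p = 1.79e-05) and 1.05 ± 0.10 at 72 h (adjusted p = 2.12e-05). Amotl1 stood at the 2-fold threshold: without untreated replicate 3 it was called at 12 h (1.04), and without RA 72 h replicate 1 the call at 72 h was lost (1.00). Yap1 itself, named here after its values were seen, held 1028 to 1231 normalised reads over the 8 libraries, with a 95% interval of its change of -0.29 to 0.10 at 12 h and -0.20 to 0.24 at 72 h.

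Among 8 tested thrombospondins and other matricellular genes, 0 were called higher and 1 lower at 12 h, and 1 higher and 1 lower at 72 h. At 72 h against 12 h, 0 were called higher and 2 lower. Smoc1, which encodes a calcium-binding matrix protein, fell at 12 h from 112 to 143 normalised reads to 48.0 to 59.9 (-1.24 ± 0.16, adjusted p = 0.000383). Postn, or periostin, was lower at 72 h, at 358 and 337 against 818 to 1099 in untreated cells (-1.47 ± 0.13, adjusted p = 9.01e-06). Its fall from 12 to 72 h was also called (-1.13 ± 0.13, adjusted p = 0.000223). Tnc, or tenascin C, rose at 72 h to 5215 and 6365 from 2563 to 3131 (1.07 ± 0.13, adjusted p = 0.000107), a call lost without RA 72 h replicate 2 (0.92). Spp1, or osteopontin, held 4814 to 6707 in untreated cells, 8647 to 12091 at 12 h and 3805 and 4574 at 72 h, and its fall between the 2 times was called (-1.36 ± 0.17, adjusted p = 0.000418). At 12 h its change was 0.97, and it was called without untreated replicate 3 (1.12) or without RA 12 h replicate 3 (1.12).

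The receptors through which CCN proteins and thrombospondin 1 act gave 1 call among 10 tested genes at 12 h and 1 at 72 h, in both cases Itgb2, an integrin beta chain known from leukocytes. It lay low, at 7.25 to 11.0 normalised reads in untreated cells, 26.9 to 33.8 at 12 h and 20.5 and 31.0 at 72 h, with changes of 1.56 ± 0.28 (adjusted p = 0.00467) and 1.34 ± 0.31 (adjusted p = 0.0131). The call at 72 h was lost without RA 72 h replicate 2 (1.05, adjusted p = 0.160), and also with a pseudocount of 10 and in a fit of the 2 groups alone. The summed level of the 5 blood cell markers was 38.8 to 76.0 in untreated cells, 44.8 to 49.9 at 12 h and 47.1 to 59.6 at 72 h, with 4 of 5 below a mean of 10, and its part in the change of Itgb2 was not tested.

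Targets of TGF-beta and of SRF, which share several genes with the YAP programme, gave 1 call of 12 at 12 h and 2 at 72 h. Tpm1, a tropomyosin gene, rose from 18923 to 22547 normalised reads to 45846 to 55334 at 12 h and 55334 in both libraries at 72 h, by 1.33 ± 0.12 (adjusted p = 1.67e-05) and 1.44 ± 0.14 (adjusted p = 1.68e-05). Tgfbi, a matrix protein gene named for its induction by TGF-beta, held 83.0 to 92.9 in untreated cells and 25.8 and 40.9 at 72 h. Its change was -1.41 ± 0.21 against untreated cells (adjusted p = 0.000721) and -1.18 ± 0.21 against 12 h (adjusted p = 0.00550), the latter lost without RA 72 h replicate 1 (-0.85) and with a pseudocount of 10. By the adjusted p alone 3 of the 12 were higher and 0 lower at 12 h, and 2 higher and 5 lower at 72 h, against 2.87% higher and 1.5% lower, and 6.08% higher and 5.41% lower, of all genes. Of the fibroblast markers, Pdgfra rose at 12 h (1.49 ± 0.11, adjusted p = 2.67e-06) and Col3a1 fell at 72 h (-1.43 ± 0.13, adjusted p = 8.25e-06), and the part of these in the changes of the members was not tested.

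**Figure D4:**
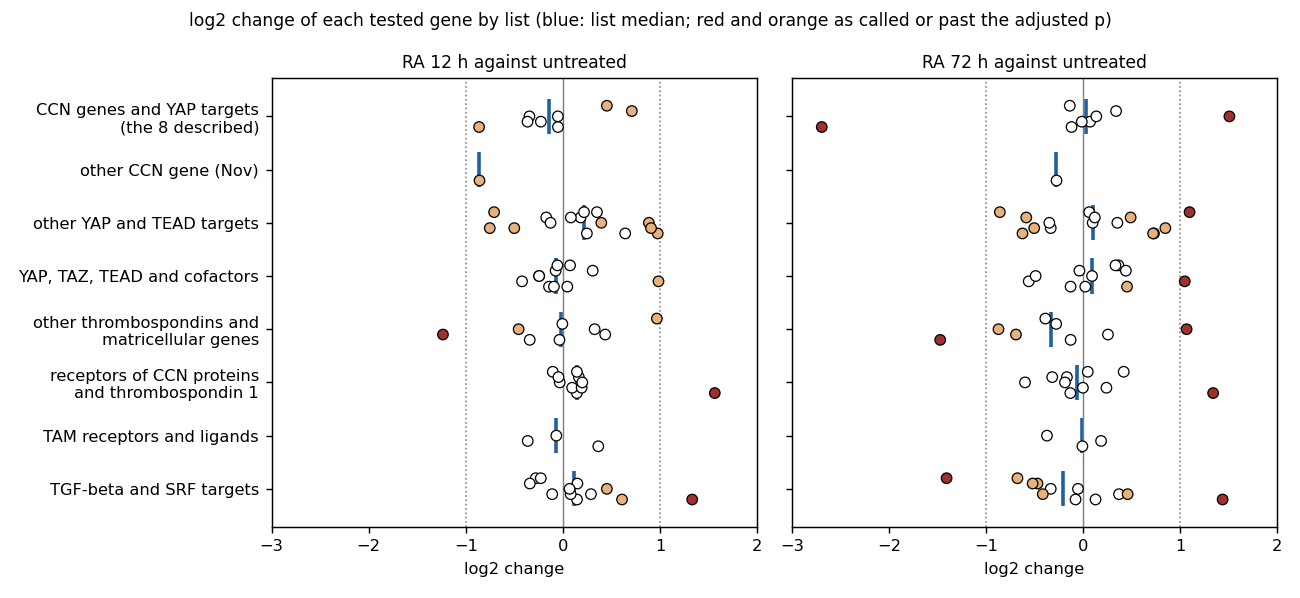
Change on the log2(value + 1) scale of each tested gene by list, at 12 h (left) and 72 h (right) of RA against untreated cells. Points are genes, filled red where called and orange where the adjusted p alone passed, blue bars are list medians and dotted lines mark 2-fold; at 72 h the medians of the 8 lists drawn run from -0.33 for the matricellular genes to 0.10 for the further YAP and TEAD targets and Thbs1 at -2.69 is the lowest point.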

How the data were processed

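Polyadenylated RNA of 8 libraries was measured. The labels describe DpnII tag libraries and the study's methods fragmented-RNA sequencing aligned to mm9 with Tophat and counted with Cufflinks. The authors deposited normalised reads per Ensembl gene with decimal commas, a linear value of another kind than counts: the methods name DESeq, but the sorted columns were identical, so the authors had quantile normalised them, and count tests were not applied. The authors also deposited log2 ratios of group averages, which were not used. The later RA time follows the labels, as the methods give another.

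On the log2(value + 1) scale, the 12673 genes whose 8 values averaged 10 or more, all 8 members among them, entered 1 limma fit (limma 3.58.1, R 4.3.3) with 3 groups and a variance trend; p-values are two-sided and adjusted by Benjamini-Hochberg over all genes tested in a contrast. Fold changes on this scale understate low genes. The fit was tested on simulated data with independent noise for each gene and library. The shared axis of the real libraries was not simulated, so its effect on false calls was not tested. All 8 members were named, with listed genes called in any contrast and the 3 genes most like each called member by Pearson's r over the 8 libraries. Nuak2, Gadd45a, F3, Yap1, Tead3 and the TAM genes were named after their values were seen. Members and lists were chosen with earlier results of these data known. Gene coordinates are 1-based on mm9 (21465 of 22200 identifiers, 96.7%, were found), and promoters come from RefSeq, matched by symbol or synonym. Alternatives changed the pseudocount, filter, scaling, variance trend, threshold, groups fitted and libraries used, added the replicate block or the side of the shared axis as a term, or subtracted a gene-body background.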

Additional observations from a re-analysis of the deposited data

Results flagged for a closer look

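The members Wisp2, Cyr61 and Thbs1 stood out because their changes after 12 h and after 72 h of RA differed by a test of the difference itself. That difference, RA 72 h against RA 12 h on the log2 scale, was 1.56 for Wisp2 (adjusted p = 5.51e-06, limma), -0.59 for Cyr61 (adjusted p = 0.0126) and -1.83 for Thbs1 (adjusted p = 2.25e-05). The RA 72 h libraries lay beyond all RA 12 h libraries in each of these genes. The same held for 7 of the 8 members and 37.3% of all genes tested, so it does not set these genes apart. The length of RA treatment and the time in culture changed together between these 2 groups, and their parts were not tested. The search for single libraries that stand apart needs groups of at least 4 and could not be made here.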

How the results depend on the processing

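The calls of Thbs1 and Wisp2 in both comparisons with 72 h held under each of the 18 alternatives run, and so did the direction of every change past the adjusted p. At 12 h, where 0 members were called, 1 (Thbs1) was called without untreated replicate 3, so that the count ran from 0 to 1 over the left-out libraries, and 3 (Thbs1, Ctgf, Cyr61) without a fold minimum. The rise of Cyr61 at 12 h passed the adjusted p in 8 of 18 alternatives, that of Ctgf in 17 and the fall of Thbs1 in 18. Of the 18, 2 changed only the calling rule and reused the main fit. Their values and adjusted p could not differ from it, here or among the 432 values below. Of 432 member values recomputed, 6 changed sign, all near 0: 1 of Amotl2 at 12 h (-0.15 to 0.016 over the left-out libraries), 1 of Ankrd1 at 72 h (-0.18 to 0.32) and 4 of Wisp1 at 72 h (-0.14 to 0.11 over the left-out libraries, 0.0051 with libraries recentred by their median and 0.015 with the replicate block). The replicate numbers showed no pairing in the correlations of within-group deviations: of 7 same-numbered pairs 2 had a correlation over 0.1 (-0.47 to 0.42), and 2 of 8 libraries matched their own number best. The deviations of the 2 RA 72 h libraries mirror each other by construction, and the shared axis weighs on all these correlations. A pairing weaker than that axis was therefore not tested. The replicate block left 0, 2 and 2 members called, as without it. The normalization hides depth, so no counting interval can be given.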
